A study of Mus musculus with 3 samples.

Results

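Glucose enters a cell through carriers of the Slc2a family, is broken down to pyruvate by the enzymes of glycolysis, and leaves as lactate, enters the mitochondria as acetyl-CoA or is set aside as glycogen. The genes described here are 42 genes of this traffic, fixed as a list of symbols: carriers, glycolytic enzymes, the Pfkfb enzymes that set the level of an activator of phosphofructokinase, the pyruvate dehydrogenase complex with its kinases, and enzymes of glycogen. A gene was read by the probe sets that the platform annotation assigns to its symbol alone, and by the brightest of them where there were several. This gave 81 probe sets for 39 of the 42 genes, out of 18193 genes read in all, and Gpi1, Eno1 and Pfkfb1 are not analysed here. The arrays hold total RNA of PDL-L2 cells, a fibroblast line from mouse periodontal ligament, kept in 3 conditions with 1 array each. The first is a SMARTpool siRNA against endoglin (siENG) followed by rhBMP-2 at 250 ng/ml, the second a control siRNA pool (siCont) followed by the same rhBMP-2, and the third siCont followed by vehicle. BMP-2 or vehicle was added 48 h after the siRNA in differentiation medium with ascorbic acid and β-glycerophosphate, by a protocol that all 3 conditions share, and the RNA was taken after 12 h. With 1 array per condition no difference has a replicate check, no test between conditions was possible, and ratios are given as a description of these arrays.

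Many of these enzymes exist as isoforms from separate genes that catalyse the same step in different tissues or with different control. Several of the genes are textbook targets of the hypoxia-inducible factors, among them Slc2a1, Ldha, Pdk1 and Gys1, so that glycolysis, lactate release and glycogen storage can be raised together while pyruvate is held back from the mitochondria. In bone-forming cells glycolysis is a main source of energy, and the periodontal ligament lies between tooth and bone.

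The siENG array was brighter than the siCont BMP-2 array, with a median log2 ratio of 0.21 among probe sets past the signal limit, and a median of 0.20 over 9 hybridisation control probe sets. The main counts for the siENG array are therefore also given relative to this shift of 0.21, as are the ratios of some single genes, where stated. All other ratios of the siENG array to a siCont array still hold the shift. Among dim probe sets the shift was smaller, with a median log2 ratio of 0.04 around a signal of 18.6 and 0.13 around 26.0. For dim genes the value of 0.21 is therefore more than the shift at their signal. Endoglin itself had a signal of 108 with siENG and BMP-2, against 299 with siCont and BMP-2 and 286 with siCont and vehicle. Of 9 fibroblast and ligament markers read, 8 were past the signal limit, and asporin was below it at 8.3 or less. Of 4 leukocyte markers 3 were past the limit, and their summed signal was 210 with siENG and BMP-2, 108 with siCont and BMP-2 and 127 with siCont and vehicle, mostly through Cd68, and the pan-leukocyte marker Ptprc (CD45) stayed at 8.1 or less. Each marker read of skeletal muscle, epithelium, endothelium and fat was at 63.5 or less on every array. Past the limit on at least 1 array were 2 of 4 markers of muscle, 2 of 4 of epithelium, 1 of 4 of endothelium and 0 of 2 of fat. Whether such cells had a part in the ratios below was not tested. In bulk RNA, fewer cells of a type and less RNA per cell cannot be told apart.

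Of the 39 genes, 34 had a signal at or above 23.0 on at least 1 of the arrays in the comparison of siENG with siCont, both with BMP-2. This limit is the median signal on the 3 arrays. Of those 34, 12 were at a ratio of 2 or more and 0 at a ratio of 0.5 or less, against 4.04% and 1.66% of the 10854 genes past the same limit. The median log2 ratio was 0.63 over the 34 and 0.24 over all genes. Relative to the shift in brightness 9 of the 34 were at a ratio of 2 or more and 0 at 0.5 or less, with 2.32% and 2.7% of all genes. At a limit of 1.5 the higher genes were 18 of 34, beside 17.1% of all genes. A gene that passes the limit only through the array where it is bright had to differ, which holds for Slc16a3 and Ppp1r3b. With both signals past the limit, 10 of 32 genes were at a ratio of 2 or more, beside 2.3% of all genes measured that way. The higher isoforms were spread over transport, glycolysis, pyruvate control and glycogen, and the plot of signals shows them as red points standing to the right of both siCont arrays.

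**Figure D1:**
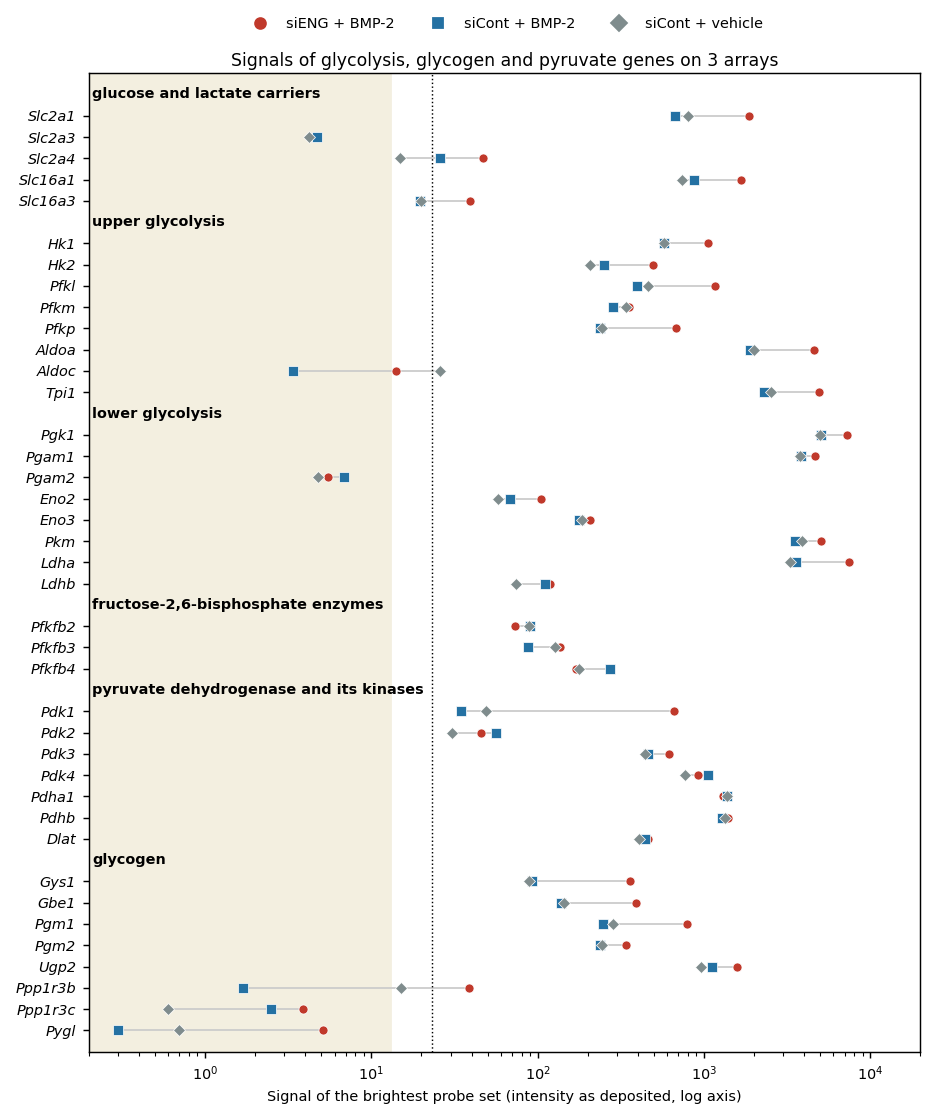
Signal of the brightest probe set of each of the 39 genes (intensity as deposited, log axis), with 1 point per array: red circles are siENG with BMP-2, blue squares siCont with BMP-2 and grey diamonds siCont with vehicle. The dotted line marks the limit of 23.0 and the shaded area the signals up to 13.1 that the Bacillus control probe sets reached. Pdk1 stands at 656 on the siENG array and below 50 on both siCont arrays.

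Slc2a1, the glucose carrier found in most cells, had a signal of 1856 with siENG and BMP-2, 669 with siCont and BMP-2 and 807 with siCont and vehicle. The siENG array was the highest of the 3, at a ratio of 2.77 over siCont BMP-2, a log2 ratio of 1.47 and 1.26 relative to the shift. Its further probe sets gave ratios of 3.35 and 3.15. The promoter window of Slc2a1 is shown because it holds both motifs searched, with the motif letters in capitals.
Slc2a1 promoter, GRCm38.p6, chr4:119108495-119108794, + strand: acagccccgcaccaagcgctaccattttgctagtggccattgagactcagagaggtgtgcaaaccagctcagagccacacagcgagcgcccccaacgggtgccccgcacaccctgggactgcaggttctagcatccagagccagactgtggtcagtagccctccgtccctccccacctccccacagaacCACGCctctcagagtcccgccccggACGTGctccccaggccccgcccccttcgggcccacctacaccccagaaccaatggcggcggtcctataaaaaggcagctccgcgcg
Slc2a4, the insulin-responsive carrier of muscle and fat, was dim, with 46.7 for siENG with BMP-2, 26.0 for siCont with BMP-2 and 14.9 for siCont with vehicle. The ratio of siENG over siCont BMP-2 was 1.80, and the second probe set, with 0.9 for siENG BMP-2, 2.4 for siCont BMP-2 and 14.4 for vehicle, was too dim to give one. Slc2a3, a carrier of high affinity best known from neurons, stayed at 4.7 or less in its brightest probe set, within the range of the Bacillus controls, whose targets mouse RNA does not hold.
Lactate leaves the cell through monocarboxylate carriers. Slc16a1, which moves lactate in either direction, had 1660 with siENG and BMP-2, 871 with siCont and BMP-2 and 742 with siCont and vehicle, a ratio of 1.91 for siENG over siCont BMP-2. Slc16a3, the carrier of strongly glycolytic cells, had 39.4 for siENG BMP-2, 19.5 for siCont BMP-2 and 19.8 for vehicle, a ratio of 2.02 between dim signals. At such signals the log2 ratios of all probe sets spread with a robust SD (a scaled median absolute deviation) of 0.58. The log2 ratios of Slc16a1 and Slc16a3, 0.93 and 1.01, differ by less than that spread.

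The entry steps of glycolysis were higher on the siENG array in most isoforms. Hexokinase traps glucose in the cell as its phosphate. Hk1, the isoform of most tissues, had 1053 with siENG and BMP-2, 574 with siCont and BMP-2 and 572 with siCont and vehicle, a ratio of 1.83. Its second probe set had 363 for siENG BMP-2, 206 for siCont BMP-2 and 290 for vehicle. That gave ratios of 1.76 over siCont BMP-2 and 1.25 over vehicle. Hk2, the inducible isoform, had 492 for siENG BMP-2, 249 for siCont BMP-2 and 205 for vehicle, a ratio of 1.97 over siCont BMP-2. Both siCont signals of each gene lay below the siENG signal, and the log2 ratios of 0.87 and 0.98 differ by less than the robust SD of 0.27 to 0.32 at these signals.
Phosphofructokinase, the committed step, is built from liver, muscle and platelet subunits, and these came apart. The liver subunit gene Pfkl had 1165 with siENG and BMP-2, 397 with siCont and BMP-2 and 460 with siCont and vehicle, a ratio of 2.93, and its further probe sets gave log2 ratios of 1.53 and 1.45. The platelet subunit gene Pfkp had 680 for siENG BMP-2, 238 for siCont BMP-2 and 245 for vehicle, a ratio of 2.86. Its further probe sets gave ratios of 2.09 and, where the siCont BMP-2 signal of 9.1 lay within the range of the Bacillus controls, at least 2.15-fold higher. The muscle subunit gene Pfkm had 356 with siENG and BMP-2, 282 with siCont and BMP-2 and 337 with siCont and vehicle, a ratio of 1.26 and a log2 ratio of 0.13 relative to the shift, within the robust SD of 0.32.
Aldolase splits the phosphorylated sugar into triose phosphates, and triose phosphate isomerase interconverts them. Aldoa, the aldolase of most tissues, had 4570 with siENG and BMP-2, 1879 with siCont and BMP-2 and 1996 with siCont and vehicle, a ratio of 2.43. All 5 probe sets of Aldoa carry the suffix that the manufacturer uses for probes shared with other transcripts. Of the other 4, 3 gave ratios from 2.66 to 3.09 and 1 gave 0.785, with signals of 555 for siENG BMP-2, 707 for siCont BMP-2 and 678 for vehicle, so the probe sets did not all point the same way. Aldoc, the brain aldolase, was at 14.0 for siENG BMP-2, 3.4 for siCont BMP-2 and 25.8 for vehicle and past the limit only on the vehicle array. Tpi1 had 4937 with siENG and BMP-2, 2301 with siCont and BMP-2 and 2519 with siCont and vehicle, and its 3 probe sets gave log2 ratios of 1.10, 1.15 and 1.19. Relative to the shift its brightest probe set stood at 0.89, short of a ratio of 2.

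In the lower steps, from triose phosphate to pyruvate and on to lactate, 1 of 7 genes past the limit was at a ratio of 2 or more, with a median log2 ratio of 0.51. In the upper steps it was 4 of 7, with a median of 1.10. Over all genes the share was 4.04% and the median 0.24. Relative to the shift the counts were 0 in the lower and 3 in the upper steps, beside 2.32% of all genes. The 1 gene of the lower steps at a ratio of 2 or more was Ldha, the lactate dehydrogenase subunit that favours lactate formation. It had 7401 with siENG and BMP-2, 3550 with siCont and BMP-2 and 3301 with siCont and vehicle. The ratio was 2.08, and the log2 ratio of 1.06 became 0.85 relative to the shift. Ldhb, the heart subunit, had 119 for siENG BMP-2, 111 for siCont BMP-2 and 74.2 for vehicle, a ratio of 1.07 for siENG over siCont BMP-2, with log2 ratios from -0.36 to 0.44 in its 3 further probe sets. The log2 ratios of the pair, 1.06 for Ldha and 0.10 for Ldhb, lay farther apart than the robust SD of 0.22 at the signal of Ldha and 0.40 at that of Ldhb. The promoter windows of this pair are shown because Ldha and Ldhb differ in ratio. The first of the 2 Ldha windows, printed here, holds 7 matches, 4 of them from 2 palindromes read on both strands, the second window holds 2, and the Ldhb window holds 1.
Ldha promoter, GRCm38.p6, chr7:46845554-46845853, + strand: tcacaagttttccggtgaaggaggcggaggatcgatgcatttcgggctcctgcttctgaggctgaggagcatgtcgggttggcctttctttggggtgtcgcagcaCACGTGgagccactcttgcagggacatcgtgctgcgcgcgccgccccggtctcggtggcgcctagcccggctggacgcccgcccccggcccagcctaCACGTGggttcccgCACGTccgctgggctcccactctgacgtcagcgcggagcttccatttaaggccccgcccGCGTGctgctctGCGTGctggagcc
Ldhb promoter, GRCm38.p6, chr6:142507908-142508207, - strand: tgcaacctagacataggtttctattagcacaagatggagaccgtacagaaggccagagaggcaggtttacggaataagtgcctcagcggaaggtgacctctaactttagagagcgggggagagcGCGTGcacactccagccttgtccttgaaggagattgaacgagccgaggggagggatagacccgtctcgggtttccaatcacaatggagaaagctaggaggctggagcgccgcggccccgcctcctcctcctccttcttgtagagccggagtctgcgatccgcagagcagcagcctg
Pgk1, the first step of the pathway that yields ATP, had 7212 with siENG and BMP-2, 5079 with siCont and BMP-2 and 5006 with siCont and vehicle, a ratio of 1.42. Its other probe sets, both with the suffix for shared probes, gave 1.39 and 2.41, so the choice of probe set moved Pgk1 across the ratio of 2. Pkm, the pyruvate kinase of most tissues outside the liver, had 5037 for siENG BMP-2, 3548 for siCont BMP-2 and 3881 for vehicle, also a ratio of 1.42. Pgam1, the common phosphoglycerate mutase, had 4638 for siENG BMP-2, 3828 for siCont BMP-2 and 3795 for vehicle, a ratio of 1.21, and the muscle form Pgam2 stayed at 6.8 or less on all arrays.
Among the enolases, which make phosphoenolpyruvate, the neuronal Eno2 had 105 with siENG and BMP-2, 68.2 with siCont and BMP-2 and 57.5 with siCont and vehicle (ratio 1.54). The muscle enolase gene Eno3 had 206.5 for siENG BMP-2, 175.9 for siCont BMP-2 and 185.4 for vehicle, a ratio of 1.17 and a log2 ratio of 0.02 relative to the shift. Gapdh, which is outside the list, is read by 3 control probe sets, whose log2 ratios for siENG over siCont BMP-2 lay between 0.42 and 0.47.

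The Pfkfb enzymes make and remove the sugar bisphosphate that activates phosphofructokinase, and no gene of this family was at a ratio of 2 or more. Pfkfb4 was the lowest of the 34 genes, with 170 with siENG and BMP-2, 271 with siCont and BMP-2 and 177 with siCont and vehicle. The ratio was 0.628 and the log2 ratio -0.67, or -0.88 relative to the shift, at a signal where the robust SD was 0.34. Its siENG and vehicle signals were near each other, and the siCont BMP-2 array stood above both. Pfkfb3, the isoform with the highest kinase over phosphatase activity, ran the other way, with 136 for siENG BMP-2, 87.4 for siCont BMP-2 and 127 for vehicle, a ratio of 1.56 over siCont BMP-2 and 1.07 over vehicle. Its further probe set had 47.4 for siENG BMP-2, 35.1 for siCont BMP-2 and 32.2 for vehicle. Those ratios were 1.35 over siCont BMP-2 and 1.47 over vehicle, so siENG near vehicle holds for the brightest probe set only. Pfkfb2, the heart isoform, had 72.9 for siENG BMP-2, 89.8 for siCont BMP-2 and 88.7 for vehicle, and its further probe sets past the limit gave log2 ratios of -0.36 and 0.46.

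Pyruvate dehydrogenase turns pyruvate into acetyl-CoA, and its kinases switch it off. Pdk1 had a signal of 656 with siENG and BMP-2, 34.8 with siCont and BMP-2 and 49.2 with siCont and vehicle. The ratio of 18.8 over siCont BMP-2 ranked 3 among the 10854 genes past the limit, and the ratio over siCont vehicle was 13.3. The second probe set had 451 for siENG BMP-2, 30.0 for siCont BMP-2 and 38.0 for vehicle, a ratio of 15.0. In the other probe sets, with 82.7 and 46.9 on the siENG array, the siCont BMP-2 signals of 8.0 and 1.4 lay within the range of the Bacillus controls, which gives at least 6.31-fold and at least 3.58-fold higher. All 4 probe sets of Pdk1 therefore placed the siENG array above both siCont arrays.
The other kinases did not share this. Pdk2, the kinase of most tissues, had 45.4 with siENG and BMP-2, 55.9 with siCont and BMP-2 and 30.7 with siCont and vehicle, a ratio of 0.812. Pdk3 had 613 for siENG BMP-2, 460 for siCont BMP-2 and 441 for vehicle, a ratio of 1.33 and a log2 ratio of 0.20 relative to the shift. Pdk4, the kinase of fasting and of fatty acid use, had 923 for siENG BMP-2, 1059 for siCont BMP-2 and 769 for vehicle, a ratio of 0.872. The log2 ratios of siENG over siCont BMP-2 were thus 4.24 for Pdk1, 0.41 for Pdk3, -0.20 for Pdk4 and -0.30 for Pdk2, and among the last 3 the neighbours Pdk4 and Pdk2 differed by less than the robust SD of 0.27 to 0.48. The subunit genes of the complex had ratios close to 1, and from 0.82 to 0.93 relative to the shift. Pdha1, a subunit of its decarboxylase, had 1305 with siENG and BMP-2, 1382 with siCont and BMP-2 and 1375 with siCont and vehicle (ratio 0.944). Its partner Pdhb had 1388 for siENG BMP-2, 1291 for siCont BMP-2 and 1329 for vehicle (ratio 1.07), and Dlat, the acetyltransferase, 461 for siENG BMP-2, 442 for siCont BMP-2 and 409 for vehicle (ratio 1.04). In the 4 further probe sets of these genes the log2 ratios lay between -0.15 and 0.16. The promoter windows of Pdk1 and Pdk2 are shown as the pair with the widest gap in one family.
Pdk1 promoter, GRCm38.p6, chr2:71872974-71873273, + strand: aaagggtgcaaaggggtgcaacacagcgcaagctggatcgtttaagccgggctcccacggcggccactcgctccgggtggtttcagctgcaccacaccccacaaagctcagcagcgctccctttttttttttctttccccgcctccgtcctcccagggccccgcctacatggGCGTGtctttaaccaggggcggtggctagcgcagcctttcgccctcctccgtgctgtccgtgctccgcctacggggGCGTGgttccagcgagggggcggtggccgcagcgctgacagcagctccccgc
Pdk2 promoter, GRCm38.p6, chr11:95041322-95041621, - strand: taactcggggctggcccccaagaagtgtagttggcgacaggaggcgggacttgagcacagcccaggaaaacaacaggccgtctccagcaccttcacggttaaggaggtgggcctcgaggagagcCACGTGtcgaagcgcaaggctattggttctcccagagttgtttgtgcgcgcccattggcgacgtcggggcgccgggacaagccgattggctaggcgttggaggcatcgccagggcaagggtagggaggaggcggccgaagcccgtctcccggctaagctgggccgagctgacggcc

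**Figure D2:**
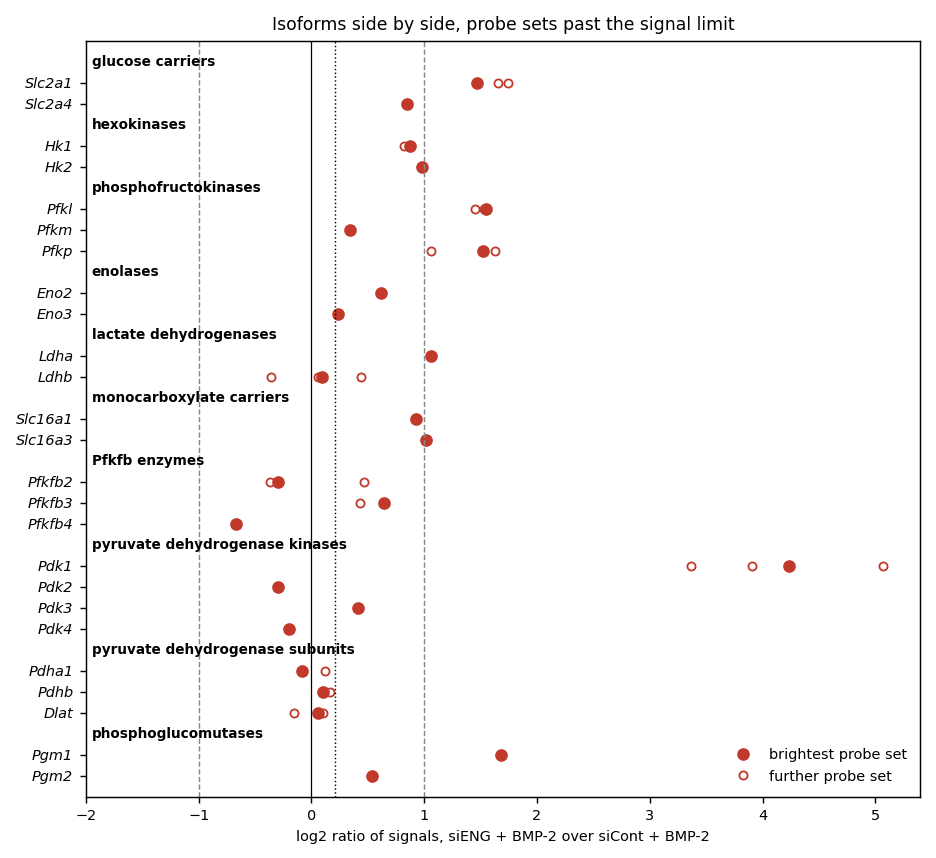
Log2 ratio of signals, siENG with BMP-2 over siCont with BMP-2, for families with at least 2 genes past the signal limit. Filled points are the brightest probe set of a gene and open points its further probe sets past the limit, the shift of 0.21 is dotted and ratios of 2 and 0.5 are dashed. Pdk1 (4.24) stands apart from the other kinases, while Hk1 and Hk2 lie together at 0.87 and 0.98.

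Glycogen, the storage polymer of glucose, is built from glucose phosphate by phosphoglucomutase, a pyrophosphorylase, glycogen synthase and the branching enzyme. Of the 8 glycogen genes 6 were past the limit, 4 of them at a ratio of 2 or more, and their median log2 ratio was 1.60, or 1.54 with Ppp1r3b at its lower bound, against 4.04% of all genes at such a ratio and a median of 0.24. Ppp1r3b is among the 4 and passed the limit only through the siENG array, so it had to differ. Gys1, the glycogen synthase of tissues other than liver, had 361 with siENG and BMP-2, 92.7 with siCont and BMP-2 and 88.7 with siCont and vehicle. The siCont signals were close to each other, the ratio over siCont BMP-2 was 3.90, and the second probe set gave 2.97. Gbe1, the branching enzyme, had 391 for siENG BMP-2, 137 for siCont BMP-2 and 144 for vehicle, a ratio of 2.85. Pgm1, the phosphoglucomutase that links glycogen with glycolysis, had 787 for siENG BMP-2, 246 for siCont BMP-2 and 284 for vehicle, a ratio of 3.20, while its dim second probe set stayed at 18.3 or less. Pgm2, which acts mainly on pentose phosphates, had 342 for siENG BMP-2, 236 for siCont BMP-2 and 243 for vehicle, a ratio of 1.45. The window of Pgm1 is shown because it is the one glycogen gene at a ratio of 2 or more in whose window a motif was found, ACGTG at 2 places.
Pgm1 promoter, GRCm38.p6, chr4:99929201-99929500, + strand: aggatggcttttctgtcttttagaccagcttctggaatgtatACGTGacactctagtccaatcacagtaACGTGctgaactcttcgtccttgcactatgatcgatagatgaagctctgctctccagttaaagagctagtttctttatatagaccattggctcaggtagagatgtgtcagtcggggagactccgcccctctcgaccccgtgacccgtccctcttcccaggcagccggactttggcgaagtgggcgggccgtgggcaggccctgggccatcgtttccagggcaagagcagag
Ugp2, which makes UDP-glucose, had 1574 with siENG and BMP-2, 1110 with siCont and BMP-2 and 957 with siCont and vehicle, a ratio of 1.42, with log2 ratios from 0.36 to 0.72 in its 4 further probe sets. Ppp1r3b, which brings a phosphatase to glycogen and so activates the synthase, had 38.7 for siENG BMP-2, 1.7 for siCont BMP-2 and 15.0 for vehicle. Its siCont BMP-2 signal was in the range of the Bacillus controls. It was at least 2.95-fold higher with siENG, and its ratio over siCont vehicle was 2.58. The related Ppp1r3c and the liver glycogen phosphorylase Pygl stayed at 3.9 or less and at 5.1 or less, where no ratio was measured.

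The promoter windows of RefSeq (GRCm38.p6) span 250 bases before to 50 after a start site, and 39 of the 42 genes have at least 1. The letters ACGTG and GCGTG, the core of the hypoxia response element, were searched on both strands, and the capitals above mark them, read as CACGT or CACGC where the match is on the opposite strand. The palindrome CACGTG, an E-box, counts as a match of ACGTG on each strand. At least 1 of the motifs was found in 8 of 11 genes that have a window and a ratio of 2 or more (72.7%), and in 19 of the 21 genes past the limit at a lower ratio (90.5%). Over all 27025 genes of the table the share was 46.7%. In Gys1, Gbe1 and Tpi1, all at a ratio of 2 or more, neither was found in this window. Pdk1 has 2 matches of GCGTG in its first window, printed above, and Pdk2 the palindrome in its first, while the second window of each gene holds no match. The counts differ with the number of windows per gene, which was not adjusted, and a match is a description of letters only.

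On the siCont arrays most of these genes had much the same signal with BMP-2 and with vehicle. Of 33 genes past the limit in siCont cells with BMP-2 or with vehicle, 0 were at a ratio of 2 or more and 1 at 0.5 or less, against 1.8% and 1.57% of 10810 genes. The median log2 ratio was 0.01 over the 33 and 0.01 over all genes. The single gene at 0.5 or less was Aldoc, whose BMP-2 signal of 3.4 lay within the range of the Bacillus controls, at least 1.97-fold lower than the vehicle signal of 25.8, and its other probe set stayed at 1.9 or less. Aldoc passed the limit only on the vehicle array, so it had to differ, and its bound falls short of 2-fold. With both signals past the limit, 0 of 31 genes were at 0.5 or less, beside 0.288% of all genes. Of the glycolytic enzymes, Aldoa, Tpi1, Pgk1, Pgam1, Pkm, Ldha, Hk1, Pfkp and Eno3 had log2 ratios between -0.13 and 0.10 in their brightest probe sets. Outside that range, apart from Aldoc, were Hk2 (0.28), Eno2 (0.25), Ldhb (0.58), Pfkl (-0.21) and Pfkm (-0.26). The second probe set of Hk1 was lower with BMP-2, at 206 against 290 with vehicle, a log2 ratio of -0.49, so the 2 probe sets of Hk1 differed.
With the limit at 1.5 in place of 2, 3 of the 33 genes were higher with BMP-2, against 4.95% of all genes. Pdk2 had 55.9 with BMP-2 and 30.7 with vehicle (ratio 1.82). Slc2a4 had 26.0 with BMP-2 and 14.9 with vehicle (1.74), and Pfkfb4 271 with BMP-2 and 177 with vehicle (1.53). Of these, Slc2a4 passed the limit only on the BMP-2 array, so it had to differ, and its dim second probe set ran the other way. Ldhb (1.49) and Pdk4 (1.38) came next. For Ldhb the further probe sets gave log2 ratios of -0.26, 0.40 and -0.55, so its direction was not settled. At the other end Pfkfb3 had 87.4 with BMP-2 and 127 with vehicle, a ratio of 0.686. Its further probe set ran the other way, with 35.1 with BMP-2 and 32.2 with vehicle, so that its direction was not settled either. Pdk1 had 34.8 with BMP-2 and 49.2 with vehicle, a ratio of 0.707. The siCont BMP-2 array enters both this comparison and that with siENG, so the 2 ratios of a gene are not independent.

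Set against the vehicle array, which the first comparison does not use, 13 of 35 genes had a ratio of 2 or more on the siENG array and 0 were at 0.5 or less, with 3.99% and 1.73% of 10847 genes. Relative to the shift in brightness between these arrays, 0.22, the counts were 9 and 1, with 2.25% and 2.85% of all genes, and the lower gene was Aldoc. With both signals past the limit, 11 of 31 were at a ratio of 2 or more, beside 2.61% of all genes. Of the 13, 10 were also among the 12 over siCont BMP-2, the siENG array being common to both. Tpi1 (1.96) and Slc16a3 (1.99) lay just below 2 against vehicle, and Hk2 (2.39), Slc16a1 (2.24) and Slc2a4 (3.13) were above it there. Slc2a4, Slc16a3 and Ppp1r3b passed the limit here only through the siENG array, so they had to differ. Aldoc, with 14.0 for siENG BMP-2 and 25.8 for vehicle, passed only through the vehicle array, so it had to differ as well. The second probe set of Slc2a4, below the limit, ran the other way, with 0.9 for siENG BMP-2 and 14.4 for vehicle. These 2 arrays differ in both siRNA and BMP-2. Side by side, the ratios over siCont BMP-2 and over vehicle were 2.77 and 2.30 for Slc2a1, 2.93 and 2.53 for Pfkl, 2.86 and 2.78 for Pfkp, 3.90 and 4.07 for Gys1 and 3.20 and 2.77 for Pgm1. In their brightest probe sets the subunits of pyruvate dehydrogenase, the other kinases and the Pfkfb genes were all below a ratio of 2 for siENG over vehicle. A dim further probe set of Pfkfb2 had 26.6 for siENG BMP-2, against 9.7 for vehicle within the range of the Bacillus controls, at least 2.03-fold higher, while its brightest had a ratio of 0.822.

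**Figure D3:**
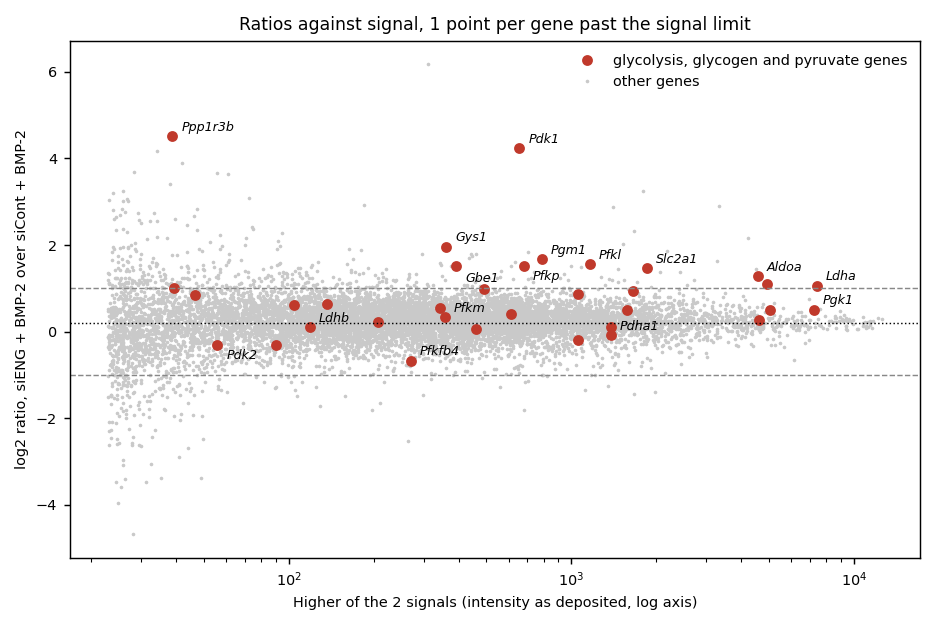
Log2 ratio of siENG with BMP-2 over siCont with BMP-2 (vertical axis) by the brighter signal of each pair (horizontal log axis, intensity), for genes past the limit of 23.0. Red points are the 34 glycolysis, glycogen and pyruvate genes and grey points all other genes, the shift of 0.21 is dotted and ratios of 2 and 0.5 are dashed. Ratios of other genes narrow to the right, where Pdk1, Slc2a1, Aldoa and Ldha lie above most of them.

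Neighbouring pathways were read the same way. Over the 6 neighbouring lists, 48 genes were past the limit, 2 at a ratio of 2 or more (4.17%) and 1 at 0.5 or less (2.08%), near the 4.04% and 1.66% of all genes. Their median log2 ratio was 0.33, against 0.24 over all genes. Of 16 genes of the tricarboxylic acid cycle past the limit, 0 were at a ratio of 2 or more, and their log2 ratios ran from -0.11 to 0.70 with a median of 0.30. The 7 genes of the pentose phosphate branch had a median of 0.50, and the highest, 0.77, was that of Rpia, its ribose phosphate isomerase. Both genes past a ratio of 2 were among the 13 other glycogen genes past the limit. The median log2 ratio of these 13 was 0.36, and 10 of them lay between the ratios of 0.5 and 2. For siENG over vehicle, 0 of 13 were at a ratio of 2 or more, beside 3.99% of all genes. Stbd1, which binds glycogen and carries it to lysosomes, had 183 with siENG and BMP-2, 71.0 with siCont and BMP-2 and 114 with siCont and vehicle, a log2 ratio of 1.36. Phkb, a regulatory subunit of phosphorylase kinase, had 155 for siENG BMP-2, 70.7 for siCont BMP-2 and 94.0 for vehicle, a log2 ratio of 1.13. The gene at 0.5 or less was Ppp1r3d, another glycogen-targeting phosphatase subunit, with 14.7 for siENG BMP-2, 36.0 for siCont BMP-2 and 31.1 for vehicle. Ppp1r3d passed the limit in this comparison only through the siCont BMP-2 array, so it had to differ. Gyg, the primer of glycogen, had a log2 ratio of 0.73. Only 2 genes of gluconeogenesis, the reverse path, were past the limit, and they pointed opposite ways. Pck2, the mitochondrial phosphoenolpyruvate carboxykinase, had 933 with siENG and BMP-2, 493 with siCont and BMP-2 and 588 with siCont and vehicle, a log2 ratio of 0.92. The ubiquitous glucose phosphatase gene G6pc3 had 14.8 for siENG BMP-2, 28.4 for siCont BMP-2 and 21.0 for vehicle, a log2 ratio of -0.94 at dim signals. G6pc3 too passed the limit only through the siCont BMP-2 array, so its lower siENG signal was given by the limit. Among pyruvate genes outside the list, the pyruvate carboxylase gene Pcx had the highest log2 ratio, 0.73, with 329 for siENG with BMP-2, 198 for siCont with BMP-2 and 298 for siCont with vehicle.

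**Figure D4:**
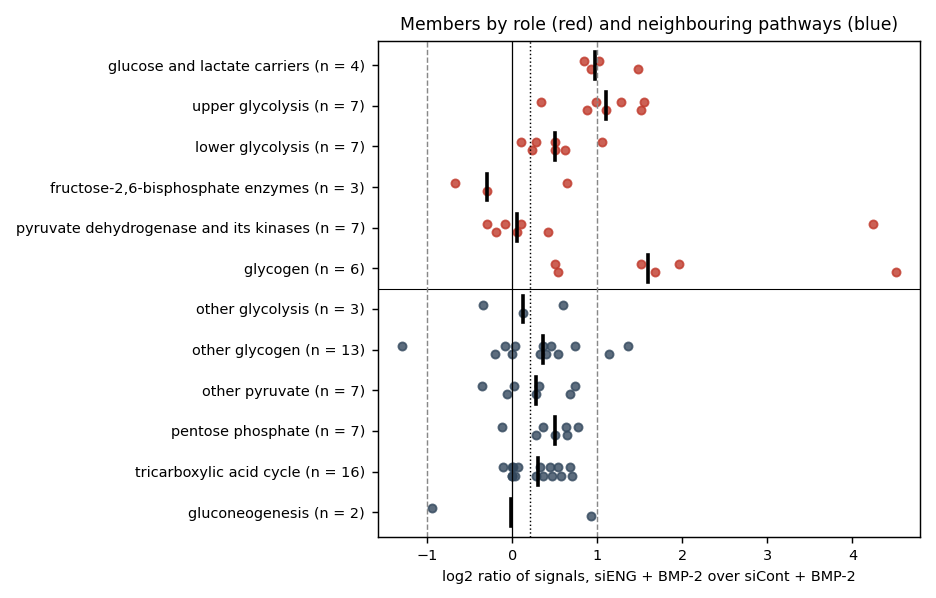
Log2 ratio of siENG with BMP-2 over siCont with BMP-2 for genes past the signal limit, with 1 point per gene and a black bar at each list's median. Red lists are the genes by role and blue lists the neighbouring pathways, the shift of 0.21 is dotted and ratios of 2 and 0.5 are dashed. The glycogen genes have the highest median, 1.60, and the Pfkfb genes the lowest, -0.30.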

How the data were processed

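Total RNA of PDL-L2 cells was read on Affymetrix mouse genome arrays, 1 per condition. The values deposited by the authors are signal intensities on a linear scale, and GCOS 1.4 is named in the notes of the submitters. How signals were computed, background-corrected and scaled was not given in the sources used here, so a difference in brightness can enter every ratio. A signal of 0 was replaced by 0.1. Of 45101 probe sets, 64 controls were left out of the ratios, and 34945 of the others carry 1 gene symbol in the platform annotation.

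A gene was represented by its probe set of highest mean log2 signal. Log2 ratios of signals were taken between arrays, and genes counted at a ratio of 2 or more or 0.5 or less where the higher signal was at least 23.0. Precision was described by the robust SD of log2 ratios (a scaled median absolute deviation) over all probe sets in 20 bins of mean log2 signal, which also holds true differences. Where 1 signal was within the range of 27 Bacillus control probe sets, up to 13.1, the fold was given as a bound against 13.1. The number of arrays limits the precision.

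All 42 genes were accounted for, with the signals of all 3 arrays for those past the limit, and neighbouring lists were described by counts and at most 4 genes of largest log2 ratio. The genes, lists and tests were chosen with earlier results of these data known. Ratios were checked on simulated data with known changes in bright genes only and with no shift in brightness between arrays. That check does not cover dim signals or the shift. Alternatives were other signal limits, a floor at the limit, quantile, median, lowess (fraction 0.3) and 2% trimmed mean scaling, other choices of probe set and a ratio of 1.5. Protein sequences are not used here. Promoter windows came from RefSeq. Python 3.11.15 was used with numpy 2.4.6, pandas 2.3.3, scipy 1.17.1, statsmodels 0.14.6 and matplotlib 3.10.9.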

Additional observations from a re-analysis of the deposited data

How the results depend on the processing

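For siENG over siCont, both with BMP-2, 12 genes were at a ratio of 2 or more, and between 8 and 14 were under every alternative at that ratio. Under each of quantile, median, lowess and 2% trimmed mean scaling it was 9, and the 9 genes were the same: Aldoa, Gbe1, Gys1, Pdk1, Pfkl, Pfkp, Pgm1, Ppp1r3b and Slc2a1. The median log2 ratio lay between 0.42 and 0.71. With a ratio of 1.5, 18 genes were higher and 1, Pfkfb4, was lower, in place of 0. For siENG over siCont vehicle the 13 genes became 7 with median centring and the stricter limit of 152 together, an alternative chosen after seeing the data, and the lower genes became 1 with median centring, with 2% trimmed mean scaling and with a ratio of 1.5. For siCont BMP-2 over vehicle the higher genes became 1 with no signal limit, 1 with any probe set and 3 with a ratio of 1.5. The 1 lower gene, Aldoc, was joined by others to make 3 with no limit and was lost, leaving 0, with the limit of 152, with that limit and median centring, and with dim signals raised to the limit. Of 203 values of single genes under alternatives, 196 moved by less than the robust SD at their signal and 0 of those at a ratio of 2 or more changed sign. For the scalings this outcome was largely fixed in advance. Median centring subtracts 0.21, less than the smallest robust SD of 0.22 at these signals, and the other scalings remove a similar shift. Such a shift also cannot turn the sign of a log2 ratio of 1 or more. The exceptions above 1 SD include Ppp1r3b, at a log2 ratio of 0.75 with dim signals raised to the limit, and Pgm1, at 0.97 with the mean over probe sets. Fewer genes remain under a stricter limit by construction. Median centring subtracts the shift in brightness from every ratio. Raising dim signals to the limit lifts the siCont BMP-2 signal of Ppp1r3b, and the mean for Pgm1 takes in its dim second probe set. For the other shifts the cause was not tested. No paired analysis was possible because each condition has 1 array. Signals near the Bacillus controls allow only bounds.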
